A study of Homo sapiens with 6 samples.

Results

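Iron handling and ferroptosis are represented here by 10 genes, taken by name from the authors' DESeq2 results table: TFRC and SLC11A2 for uptake, FTH1, FTL and NCOA4 for storage and its release, SLC40A1 for export, ACO1 and IREB2 for sensing, and GPX4 and ACSL4 for lipid peroxide defence and lipid peroxidation. All 10 were found among the 13885 listed genes after Ensembl identifiers were matched to symbols. The table compares 3 samples that received siRNA against PCIF1 (siPcif1) with 3 that received a scrambled siRNA (siScram). PCIF1 is the methyltransferase that turns a cap-adjacent adenosine into m6Am. Both groups are BE(2)-C, a human neuroblastoma cell line labelled as wild type in genotype, transfected for 24 h and then kept for 4 days in 10 µM all-trans retinoic acid (ATRA), with fresh ATRA medium every 24 h. No group without ATRA is compared here, and the labels name 1 siRNA against PCIF1. Whether replicates are independent cultures is not in the labels, so the p-values may reflect technical spread among these 6 samples.

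Cells take up iron mainly as transferrin, through the transferrin receptor, and store it in the ferritin shell built from heavy (FTH1) and light (FTL) chains. Iron regulatory proteins, encoded by ACO1 and IREB2, bind hairpins called iron-responsive elements when iron is scarce. Binding before the coding region blocks translation, as in ferritin and ferroportin mRNA, and binding after it protects TFRC mRNA from decay. Ferroptosis is a death caused by iron-driven peroxidation of membrane lipids; GPX4 reduces these peroxides, and ACSL4 loads membranes with the polyunsaturated fatty acids that are peroxidised. Neuroblastoma cells are known for a high demand for iron.

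The hairpins are shown because they are the feature through which iron acts on these mRNAs. In GENCODE 29 transcripts (GRCh38), hairpins were searched as a C, a stem of 5 pairs (G with T allowed) and a loop. The loop was CAGTG followed by A, C or T. Of the 10 genes, 4 held at least 1 such hairpin in an untranslated region. Capitals mark the loop, and each line gives the RNA strand as DNA letters, 5′ to 3′.
FTH1, 5′ UTR in exon 1, minus strand, chr11:61967574-61967602: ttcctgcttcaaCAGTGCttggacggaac
FTL, 5′ UTR in exon 1, plus strand, chr19:48965335-48965363: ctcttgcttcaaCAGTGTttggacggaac
SLC40A1, 5′ UTR in exon 1 of 1 transcript, minus strand, chr2:189580661-189580689: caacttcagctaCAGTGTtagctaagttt
TFRC, 3′ UTR in exon 18, minus strand, chr3:196050979-196051007: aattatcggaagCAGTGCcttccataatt
TFRC, 3′ UTR in exon 18, minus strand, chr3:196050575-196050603: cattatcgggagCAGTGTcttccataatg
TFRC, 3′ UTR in exon 18, minus strand, chr3:196050510-196050538: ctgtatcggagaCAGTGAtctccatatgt
TFRC, 3′ UTR in exon 18, minus strand, chr3:196050463-196050491: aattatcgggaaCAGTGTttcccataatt

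The ferritin hairpins share the stem arms TTCAA and TTGGA. By the pattern searched, TFRC alone among the 10 genes held more than 1, with 4 in its 3′ UTR. Elements that depart from that pattern are not counted, for TFRC as for the other genes. Hairpins of this kind were rare: 0.0869% of the 11503 main transcripts with a 5′ UTR and 0.541% of the 11642 with a 3′ UTR held one. SLC11A2 is known to have an iron-responsive element in some of its mRNA forms; none of its 34 transcripts matched this strict pattern, which says only that these letters are not there. The values that follow are per gene and do not separate mRNA forms with and without a hairpin.

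The first transcribed base is shown because PCIF1 methylates only adenosine there. RefSeq starts (GRCh38.p14) were found for 9 of the 10 genes. For the genes that passed the test below, each line gives 10 bases before the start and 10 from it, with the first transcribed base in capitals.
TFRC, chr3:196082081-196082100, minus strand: ccatcccctcAgagcgtcgg
IREB2, chr15:78438206-78438225, plus strand: atatttgcgcGagcctgctt
IREB2, chr15:78438411-78438430, plus strand: gcgccgaattCcttgctttt
GPX4, chr19:1103984-1104003, plus strand: acgcgcgtccAttggtcggc
GPX4, chr19:1104047-1104066, plus strand: agcctcggccGcctttgccg
GPX4, chr19:1104640-1104659, plus strand: acagtcgcgcAgtcctgact

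By these annotated starts TFRC begins with A, IREB2 at neither of its 2 starts, and GPX4 at 2 of its 3. SLC11A2 begins with A at 1 of 4 starts, and SLC40A1, ACO1, NCOA4, FTL and ACSL4 at none. Across 14402 start windows of genes in the table, 46.2% begin with A. Annotated starts are not measured starts in these cells, and m6Am was not measured in this table.

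Direction has to be settled before any value is read. The header does not say which group is the numerator, and signs are given here as deposited. PCIF1 itself has a log2 fold change of -0.82 (SE 0.19), and from that sign all values are read as siPcif1 over siScram. If the order in the table's name were followed instead, every sign would turn. Values for each sample are not analysed here, so levels are the authors' mean of normalised counts over the 6 samples, and the SE of the fold change stands for the spread. Over all genes 4716 of 13885 (34.0%) passed a DESeq2 adjusted p of 0.05, 16.3% upward and 17.7% downward. As a check on the cell type, all 12 noradrenergic neuroblastoma markers were listed, with means from 43.3 to 4718, while 0 of 5 erythroid and 0 of 3 macrophage iron-handling markers were. Fibroblast, Schwann or glial and immune markers were listed for 5 of 7, 3 of 6 and 1 of 5 genes, with highest means of 718, 149.5 and 138.

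Of the 10 genes, 2 rose, TFRC and IREB2, and 1 fell, GPX4, in the authors' deposited table. That share is close to the 34.0% of all genes. The median log2 fold change of the 10 was -0.03, beside 0.0059 over all genes in the authors' deposited table. They therefore did not shift as a block: the values ran from -0.63 to 0.79. TFRC and SLC11A2, both of uptake, differed in size, and the sensing genes ACO1 and IREB2 in sign. FTH1, FTL and NCOA4 had the same sign and none of them passed. Differences between genes were not tested.

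**Figure D1:**
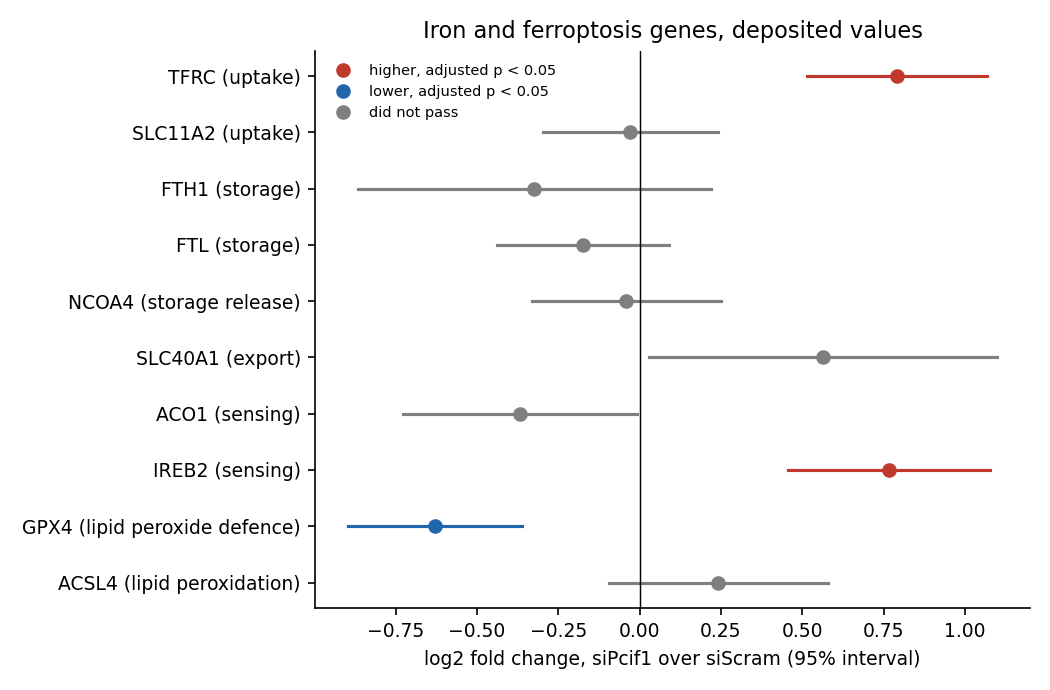
Log2 fold change (siPcif1 over siScram) of the 10 genes, by role, with 95% intervals from the SE of the authors' deposited table. TFRC (0.79) and IREB2 (0.77) lie right of 0 and GPX4 (-0.63) left of it with adjusted p under 0.05, and the other 7 did not pass.

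Uptake genes divided. TFRC, the receptor for iron-loaded transferrin (ENSG00000072274.12; chromosome 3, 196027183 to 196082189), averaged 2233 normalised counts. It rose by a log2 fold change of 0.79 (SE 0.14) in the authors' deposited table, the largest change in size among the 10 genes, with a DESeq2 adjusted p of 4.16e-07. As a level this is 173% of siScram (95% interval 143 to 209%), or group means of about 1636 and 2831 if the authors' fold change and mean are combined. SLC11A2, the divalent metal transporter that moves iron out of the endosome after transferrin uptake (ENSG00000110911.15; chromosome 12, 50979401 to 51028566), averaged 477. Its value in the authors' deposited table was -0.03 (SE 0.14, DESeq2 adjusted p = 0.893), the smallest change in size of the 10. The 95% interval of SLC11A2, from 81.3 to 118% of siScram, does not reach the lower bound of TFRC; the difference between the genes was not tested.

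For the 9 other uptake genes listed, the authors' deposited table holds 1 that rose and 3 that fell (median -0.19), or 44.4% called beside 34.0% of all genes. STEAP3, the ferrireductase that reduces iron in the endosome before SLC11A2 can carry it, fell by 1.90 on the log2 scale (SE 0.23, DESeq2 adjusted p = 1.50e-14) from a low mean of 64.7 in the authors' deposited table. SLC39A14, an importer of iron not bound to transferrin, and LRP1, a receptor that takes up heme bound to hemopexin, were at -0.77 (SE 0.15) and -0.81 (SE 0.16) there. EXOC6, an exocyst subunit needed for transferrin receptor cycling in red cell precursors, was the other gene that rose, at 0.77 (SE 0.18) in the authors' deposited table. TFRC and STEAP3, which serve the same endosome, thus moved in opposite directions.

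Neither ferritin chain passed the test, and they were measured with very different precision. FTL (ENSG00000087086.14; chromosome 19, 48965301 to 48966878), with the highest mean of the 10 at 8808, stands in the authors' deposited table at -0.18 (SE 0.13, DESeq2 adjusted p = 0.327). This places the FTL level between 73.8 and 106% of siScram. FTH1 (ENSG00000167996.15; chromosome 11, 61959718 to 61967660), at a mean of 4429, stands in the authors' deposited table at -0.32 (SE 0.28, DESeq2 adjusted p = 0.388). Its interval, 54.9 to 116% of siScram, allows a fall as deep as that of GPX4 as well as no change. Per kilobase of main transcript, FTL averaged 10031 normalised counts, FTH1 3604 and NCOA4 840.

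The SE of FTH1 stood apart from genes of like level. Among 412 genes within 2-fold of its mean the median SE was 0.14 in the authors' deposited table, and FTH1 stood at percentile 98.5. Of 1375 genes with a mean of at least 1000, 23 had an SE over 0.25, FTH1 among them, and the next SE below that group was 0.196. Those 23 also included MT-ND1, MT-CO2, RPLP1, HNRNPA1 and MALAT1, named after their values were seen. For the other 9 genes the SE lay between the percentiles 5.2 and 71.9 of genes of like level. FTH1 has 25 annotated pseudogenes, of which 0 are in the table, and FTL has 16, of which FTLP3 is listed at a mean of 17.1; the sources used here do not say how reads shared with such copies were counted. FTH1 also overlaps BEST1 on the opposite strand, which had a mean of 111 and a log2 fold change of -0.55 in the authors' deposited table. The part of either in the spread of FTH1 was not tested.

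**Figure D2:**
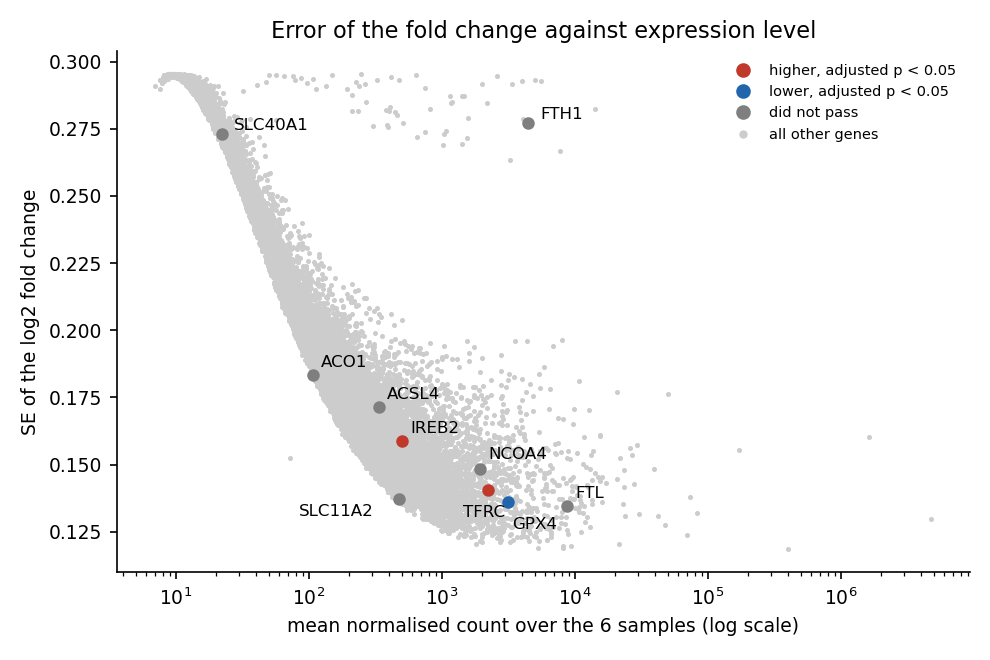
SE of the log2 fold change against the mean normalised count (log scale) for all 13885 genes (light grey), with the 10 genes coloured by their call. FTH1, at an SE of 0.277 and a mean of 4429, lies in a sparse band far above the cloud that holds the other well-expressed genes of the group.

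NCOA4, the receptor that carries ferritin to the lysosome so that its iron is released (ENSG00000266412.5; chromosome 10, 46005088 to 46030714), averaged 1937. The authors' deposited table puts it at -0.04 (SE 0.15, DESeq2 adjusted p = 0.861), with an interval of 79.5 to 119% of siScram. The remaining measured storage genes were PCBP1 and PCBP2, chaperones that bring iron to ferritin, their relative PCBP3, and HERC2, a ubiquitin ligase that acts on NCOA4. By the authors' deposited table PCBP2 fell, at -0.57 (SE 0.15, DESeq2 adjusted p = 0.00112), while PCBP1 at 0.02, PCBP3 at -0.34 and HERC2 at 0.30 did not pass. PCBP2 was the 1 call among 7 measured storage genes (14.3% beside 34.0% of all genes). Against an absolute log2 change of 0.3 that call was lost, leaving 0 of the 7 beside 9.07% of all genes.

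SLC40A1 encodes ferroportin, the only known cellular iron exporter (ENSG00000138449.10; chromosome 2, 189560579 to 189583758). It was the least abundant of the 10, at a mean of 22.1, or 6.43 per kilobase. Its value of 0.56 (SE 0.27) in the authors' deposited table missed the threshold, with a DESeq2 adjusted p of 0.10 and an interval of 102 to 214% of siScram. The other 4 export genes of the list, HEPH, CP, HAMP and HEPHL1, were not among the listed genes. At this depth a change in ferroportin mRNA could not be told from none after adjustment.

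The genes for the iron regulatory proteins had values of opposite sign. IREB2, which encodes IRP2 (ENSG00000136381.12; chromosome 15, 78437431 to 78501456), rose by 0.77 (SE 0.16) at a mean of 500.2, with a DESeq2 adjusted p of 1.87e-05 in the authors' deposited table. This is 170% of siScram (95% interval 137 to 211%), or about 370.4 and 630 as group means. ACO1, which encodes IRP1 and, with an iron-sulfur cluster in place, cytosolic aconitase (ENSG00000122729.18; chromosome 9, 32384603 to 32454769), averaged 107 and stood in the authors' deposited table at -0.37 (SE 0.18). That missed the threshold at a DESeq2 adjusted p of 0.107, although the unadjusted interval of 60.5 to 99.4% of siScram lies below 100%. Per kilobase the level of IREB2 was 78.7 and that of ACO1 14.3. IREB2 overlaps an antisense gene that is not in the table.

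IRP2 is removed in iron-replete cells by a ubiquitin ligase made of FBXL5, SKP1, CUL1 and RBX1. No gene of these 4 passed by DESeq2, beside 34.0% of all genes, nor had an unadjusted p under 0.05. The authors' deposited table puts them at -0.07, 0.07, 0.19 and 0.05 (SE 0.13 to 0.17). The change in IREB2 mRNA was not accompanied by a called change in the mRNA of this ligase, but 4 genes are too few to set that apart from the share over all genes. Protein levels were not measured.

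Other known iron-responsive element transcripts were measured too. EPAS1, the hypoxia-inducible factor HIF-2α with an element in its 5′ UTR, rose in the authors' deposited table by 1.46 (SE 0.18, DESeq2 adjusted p = 2.12e-14). CDC14A, a phosphatase with an element in its 3′ UTR, rose by 0.70 (SE 0.20, DESeq2 adjusted p = 0.00234) there. CDC42BPA, a kinase with a 3′ element, stood in the authors' deposited table at 0.10 (SE 0.14) and did not pass. Placed side by side, genes with a 3′ element were at 0.79 (TFRC), 0.70 (CDC14A), 0.10 (CDC42BPA) and -0.03 (SLC11A2) in the authors' deposited table, and those with a 5′ element at 1.46 (EPAS1), 0.56 (SLC40A1), -0.18 (FTL) and -0.32 (FTH1). Among these named genes, neither position of the element went with a single sign.

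GPX4, the selenium-containing enzyme that reduces lipid hydroperoxides within membranes (ENSG00000167468.16; chromosome 19, 1103926 to 1106791), averaged 3145, or 3422 per kilobase. It fell, with a log2 fold change of -0.63 (SE 0.14) and a DESeq2 adjusted p of 4.34e-05 in the authors' deposited table. That is 64.6% of siScram (95% interval 53.7 to 77.7%), or about 3821 and 2469 as group means. GPX4 is also the gene of the 10 with the highest GC content, 63.0%, and a short main transcript of 919 bases. Fold changes in the table followed both properties over all genes. They fell by 0.20 on the log2 scale for each 10 points of GC content and were 0.22 higher per 10-fold length. With this linear trend and that of expression level removed, GPX4 was at -0.12 and no longer passed (adjusted p from the DESeq2 values = 0.564).

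With the same trend removed, TFRC and IREB2 stayed past the threshold and ACO1 came to pass it. TFRC was then at 0.68 (adjusted p from the DESeq2 values = 2.12e-05) and IREB2 at 0.51 (adjusted p from the DESeq2 values = 0.00881). ACO1 moved to -0.56 (adjusted p from the DESeq2 values = 0.0131), so that both iron regulatory genes passed, in opposite directions. The count of called genes among the 10 was 3 either way, beside 25.2% of all genes with the trend removed (12.4% higher, 12.8% lower). FTL moved from -0.18 to 0.25 and ACSL4 from 0.24 to -0.03, neither of them past the threshold on either scale. What gives rise to the trend was not tested.

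Other ways of calling genes were set beside the background in the same manner. TFRC, IREB2 and GPX4, 3 of the 10, passed an adjusted p of 0.01 (22.9% of all genes) and of 0.1 (41.2%), from the DESeq2 values. The same 3 passed when genes with a mean under 100 were left out (41.7%) and when fold changes were centred on the median (33.9%). Against an absolute log2 change of 0.3, TFRC and IREB2 passed and GPX4 did not (9.07% of all genes). When the DESeq2 statistics were scaled to a robust SD of 1, 0 of the 10 passed beside 0.972% of all genes. Without scaling, 5 of the 10 had an unadjusted DESeq2 p under 0.05, beside 5998 of all 13885 genes.

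**Figure D3:**
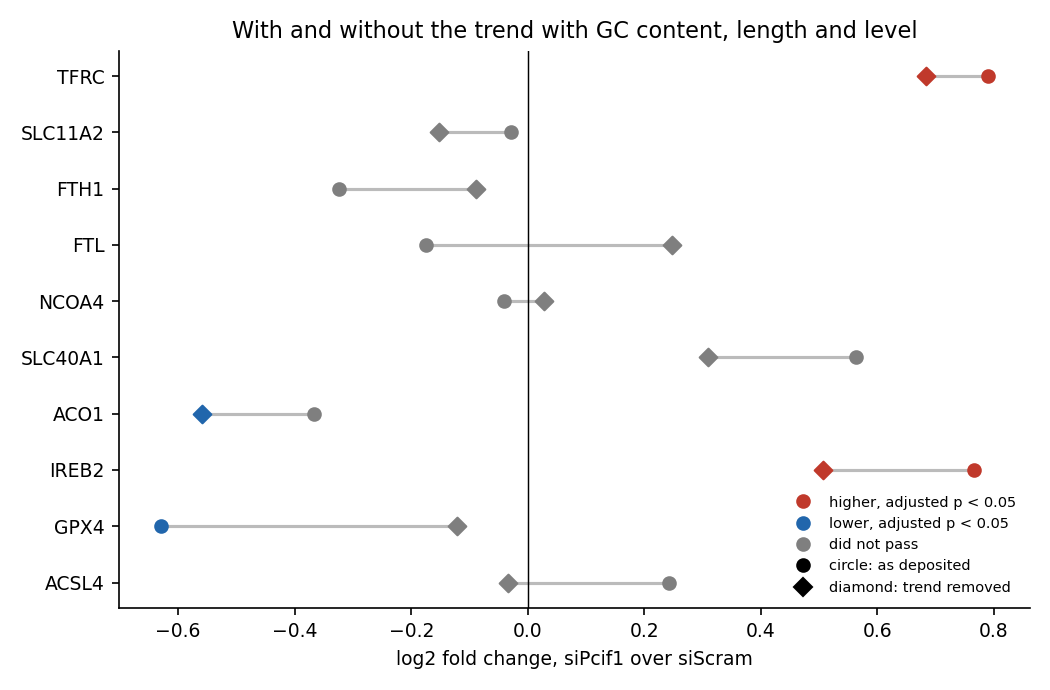
Log2 fold change (siPcif1 over siScram) of the 10 genes as deposited (circles) and after removal of the linear trend with GC content, transcript length and expression level (diamonds), coloured by call. GPX4 moves from -0.63 to -0.12 and loses its call, ACO1 moves from -0.37 to -0.56 and gains one, and TFRC and IREB2 keep theirs.

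For the 19 other measured genes of lipid peroxide defence, the authors' deposited table holds 6 that fell and 1 that rose (median -0.30). Their called share, 36.8%, is close to the 34.0% of all genes. Those that fell were 6 of the 19, beside 17.7% of all genes. With the trend removed the same 6 were lower, beside 12.8% of all genes. TXN, thioredoxin, was then the 1 higher gene in place of MBOAT2, beside 12.4% of all genes. SLC7A11 and SLC3A2, which together form the cystine importer that feeds glutathione synthesis, stood in the authors' deposited table at -0.78 (SE 0.15) and -1.55 (SE 0.16). AIFM2, also called FSP1, which regenerates the radical-trapping form of coenzyme Q, and TXNRD1, thioredoxin reductase, were both at -0.87 there (SE 0.16 and 0.14). GCLM, the modifier subunit of glutamate-cysteine ligase, and PRDX6, a peroxiredoxin that repairs lipids, fell as well in the authors' deposited table, at -0.76 (SE 0.20) and -0.58 (SE 0.15), and MBOAT2, a phospholipid acyltransferase, rose at 0.41 (SE 0.15). With the trend removed SLC7A11, SLC3A2, AIFM2 and TXNRD1 were at -1.12, -1.22, -0.74 and -0.92 and kept their calls, unlike GPX4.

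ACSL4, the acyl-CoA synthetase for arachidonic and adrenic acid (ENSG00000068366.19; chromosome X, 109624244 to 109733403), averaged 335. The authors' deposited table puts it at 0.24 (SE 0.17, DESeq2 adjusted p = 0.281), with an interval of 93.7 to 149% of siScram. Of 11 other genes that promote ferroptosis, 3 fell and 8 did not pass, a called share of 27.3% beside 34.0% of all genes. The authors' deposited table gives those 3 as SAT1, the polyamine acetyltransferase, at -1.09 (SE 0.17), CHAC1, which degrades glutathione, at -1.03 (SE 0.17), and POR, the cytochrome P450 oxidoreductase that can feed lipid peroxidation, at -0.90 (SE 0.17). LPCAT3, which places the ACSL4 products into phospholipids, stood in the authors' deposited table at 0.06 (SE 0.16); it was named after its value was seen.

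**Figure D4:**
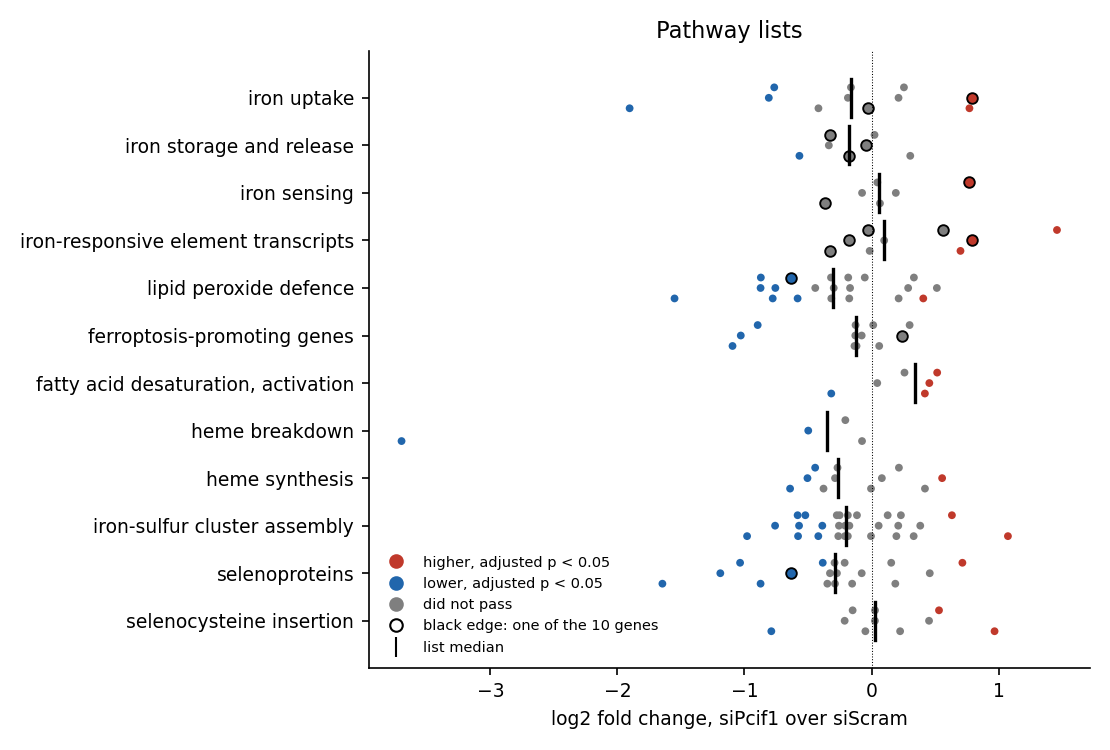
Log2 fold change (siPcif1 over siScram) of each measured gene by list, coloured by call, with the 10 genes outlined in black and the list median as a bar. Of the 20 genes of lipid peroxide defence 40% were called, beside 34.0% of all genes. Of these 8 called genes 7 lie below 0, where 17.7% of all genes were called downward. GPX4 is among the 7 but lost its call with the trend removed. In the uptake list TFRC (0.79) and STEAP3 (-1.90) lie at opposite ends.

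HMOX1, which frees iron from heme and so feeds the same pool, stood in the authors' deposited table at -3.70 (SE 0.19), a far larger change than that of any of the 10 genes.

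Some sequence features were compared without a test. The 16 promoter windows cover 9 of the 10 genes and leave out FTH1. Each runs from 250 bases before to 50 bases after a RefSeq start. The antioxidant response element TGACNNNGC (either strand) was found in 1 of them, at a start of NCOA4, beside 14.6% of all such windows. The amino acid response element TGATGNAAN (either strand) was also found in 1, at a start of SLC11A2, beside 1.95% of all. The word TCAAGT, which was taken up because earlier work on these data had linked it to lower values, occurred in the main 3′ UTR of 5 of the 10 genes, TFRC, SLC11A2, SLC40A1, ACO1 and ACSL4. It occurs in 31.2% of all main 3′ UTRs. Those 5 are from 1299 to 4658 bases long, and of the 3 genes that passed, TFRC held the word, while IREB2 and GPX4 did not.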

How the data were processed

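Poly(A)-selected, strand-specific libraries were sequenced, per the labels' protocols. Tools listed in the submitters' processing notes are STAR 2.7.10a, HTSeq and the authors' DESeq2, with cutadapt 3.7, bcl2fastq 2.20, deepTools and the build hg38, without role or settings. The annotation and strand setting used to count reads were not given in the sources used here. The authors' deposited table gives, per the file headers, the mean of normalised counts (a signal), a log2 fold change with its SE (log2 values), the Wald statistic (a score), and p-values, plain and Benjamini-Hochberg adjusted, all by the authors. Depth per library is unknown; precision is read from the SE.

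In the authors' DESeq2 table the SE never exceeded 0.295, as happens when fold changes are shrunken under a normal prior (SD 0.590 under that reading). No header says so. If it holds, fold changes are understated, and so is the SE of noisy genes. Symbols, coordinates, transcripts and untranslated regions came from GENCODE 29 (13877 of 13885 identifiers matched on the unversioned identifier); the main transcript was ranked by APPRIS, basic tag, support level and length. Start windows came from RefSeq (GRCh38.p14).

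The 10 genes, the lists and the naming rule were chosen with earlier results of these data known. Named were the 10 genes, PCIF1, HMOX1, of each list up to 4 others by smallest adjusted p (all in lists of at most 6 measured genes), and FTLP3. GCLM, PRDX6, MBOAT2, TXN, LPCAT3, SELENOI, ALAD and ABCB10 were chosen after their values were seen. So were the genes of the group with a high SE and that group's limits. Some genes that the rule names are not reported here. Calls are an adjusted p under 0.05 in the authors' DESeq2 table. Intervals are the fold change ± 1.96 SE. Trend removal was a linear regression on GC content, log10 length and log10 mean; p-values were recomputed from the residual over the SE and adjusted over 13877 genes. Steps were tested on simulated data. Computation used pandas 2.3.3, numpy 2.4.6 and scipy 1.17.1 in Python 3.11.15, and figures matplotlib 3.10.9.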

Additional observations from a re-analysis of the deposited data

How the results depend on the processing

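TFRC and IREB2 passed at adjusted p thresholds of 0.01 and 0.1, without genes under a mean of 100, after centring on the median, with the trend removed, and against an absolute log2 change of 0.3. GPX4 passed in these except with the trend removed (-0.12) and against 0.3 (adjusted p from the DESeq2 values = 0.128). Against 0.3, 1260 of all genes (9.07%) passed, and 2 of the 10. PCIF1, whose sign sets the direction, did not pass against 0.3 (adjusted p from the DESeq2 values = 0.0658). With the Wald statistics scaled to a robust SD of 1, 135 of all genes (0.972%) passed and 0 of the 10. The robust SD before scaling was 2.44, and true changes widen it too. The adjusted p of TFRC, IREB2, GPX4 and PCIF1 from the scaled DESeq2 statistics was 0.463, 0.635, 0.673 and 0.744. Without scaling, 5 of the 10 had an unadjusted DESeq2 p under 0.05, beside 5998 of all 13885 genes. Counts of called genes by list, members included, were lower against 0.3: 0 from 1 in storage, 0 from 4 in heme synthesis, 0 from 4 in desaturation, 2 from 10 in iron-sulfur assembly, 4 from 8 in lipid peroxide defence, 1 from 2 in heme breakdown and 1 from 3 in selenocysteine insertion. Values that changed sign, all uncalled, were those of FTL (0.25), NCOA4 (0.028) and ACSL4 (-0.034) with the trend removed. Under the reading that fold changes were shrunken, TFRC would be at 0.84, IREB2 at 0.83 and GPX4 at -0.67. SLC40A1 would be at 0.82 and FTH1 at -0.48 (95% interval -1.29 to 0.33). By the other solution of the same equation SLC40A1 and FTH1 would be at 1.82 and -0.99, readings added after seeing the data. No paired analysis was possible because the table analysed here holds 1 comparison and no values per library; for the same reason no replicate was left out.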

Other observations

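Other users of iron and selenium were mixed. The authors' deposited table holds 28 genes of iron-sulfur cluster assembly, of which 2 rose and 8 fell (35.7% called beside 34.0% of all genes). With the trend removed 4 of the 28 were called higher and 6 lower, beside 12.4% and 12.8% of all genes. The scaffold ISCU, its co-chaperone HSCB and the late-acting ISCA2 were among the genes that fell in the authors' deposited table, at -0.52, -0.98 and -0.76 (SE 0.14, 0.20 and 0.17). In heme synthesis, 1 of 11 rose and 3 fell (36.4% called beside 34.0% of all genes). FECH, which inserts iron into protoporphyrin, stood in the authors' deposited table at -0.64 (SE 0.16), and at -0.77 with the trend removed. PPOX, TMEM14C and CLPX, at -0.50, -0.44 and 0.56 as deposited, lost their calls with the trend removed. ALAD and ABCB10, at 0.42 and -0.38 as deposited, came to pass at 0.46 and -0.51. That left 1 of the 11 called higher and 2 lower, beside 12.4% and 12.8% of all genes. HMOX2, the constitutive heme oxygenase, and the biliverdin reductase BLVRA did not pass in the authors' deposited table, at -0.21 (SE 0.16) and -0.07 (SE 0.18). BLVRB, at -0.50 (SE 0.20), passed as deposited and lost its call with the trend removed.

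The authors' deposited table holds 17 selenoprotein genes other than GPX4, of which 5 fell and 1 rose (35.3% called beside 34.0% of all genes; median -0.29, and -0.03 with the trend removed). Among those that fell, SELENOK, SELENOS and SELENOM were at -1.65 (SE 0.16), -1.03 (SE 0.14) and -1.19 (SE 0.19). SELENOI, an enzyme of phospholipid synthesis, was the gene that rose in the authors' deposited table, at 0.72 (SE 0.14). SECISBP2, which binds the selenocysteine insertion element in these mRNAs, rose by 0.97 (SE 0.16, DESeq2 adjusted p = 1.54e-08), and TRNAU1AP, a partner of the selenocysteine tRNA, stood in the authors' deposited table at -0.79 (SE 0.17). Of 6 genes of fatty acid desaturation, elongation and activation, SCD, ELOVL5 and ACSL3 rose (0.45, 0.52 and 0.42) and FADS1 fell (-0.32) in the authors' deposited table; this is 66.7% called beside 34.0% of all genes. With the trend removed SCD kept its call, the other 3 lost theirs, and FADS2, at 0.04 as deposited, came to pass at 0.37 (adjusted p from the DESeq2 values = 0.0415). At an adjusted p of 0.01, 2 of the 6 passed, beside 22.9% of all genes.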
